A study of Mus musculus with 2 samples.

Results

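Transcript levels of 10 genes known from other work to respond to low oxygen (*Ankrd37*, *Adm*, *Bnip3*, *Egln1*, *Egln3*, *Vegfa*, *Pdk1*, *Higd1a*, *Ldha* and *Epas1*) were followed across the cell classes of the ventral parafacial region, a part of the ventrolateral medulla that takes part in the control of breathing. They are 10 of the 28692 genes listed in each library, and all 10 had UMIs in both. The genes were chosen by name with their levels in these same libraries already known, so each difference between the libraries given here is a description and carries no test. No label names a hypoxic exposure, and the name of the group comes from what is known of the genes and not from these data.

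Single-cell libraries were made from 10-day-old C57BL6/J mice, 1 library from untreated mice, whose condition the labels give as WT (wild type), and 1 from mice injected with 4OH-tamoxifen (0.2 mg per day for 3 days), the active metabolite of tamoxifen. Each library pooled 8 mice, 4 male and 4 female, and both were prepared by slicing the brainstem and treating it with protease at warm temperature before trituration. The labels name no transgene or Cre allele in either group. Treatment, library batch and the pool of mice cannot be told apart with 1 library on each side, so both values are given with intervals that cover counting error only.

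Cells sense falling oxygen through prolyl hydroxylases, the enzymes encoded by the *Egln* genes, which use oxygen to mark hypoxia-inducible factor (HIF) for destruction. When oxygen is short the α subunit of HIF, for example HIF-2α from *Epas1*, stays intact, pairs with its ARNT partner and binds short DNA elements with the core ACGTG or GCGTG near its target genes. The targets include secreted signals to vessels (*Vegfa*, *Adm*), enzymes that turn metabolism toward lactate (*Ldha*, *Pdk1*), proteins of the mitochondrial membranes (*Bnip3*, *Higd1a*) and the sensors themselves. In brain, astrocytes are a known source of VEGFA and endothelial cells and pericytes are known for abundant *Epas1*.

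The promoters of 3 members are shown because these genes carry the largest endothelial difference (*Ankrd37*), the difference found in the most classes (*Ldha*), and an opposite order of the libraries in astrocytes (*Bnip3*). Each run is the RefSeq window from 250 bases before to 50 bases after a transcript start, 5′ to 3′ on the strand of the gene, with each ACGTG on either strand in capitals.
*Ankrd37* (GRCm38.p6 chr8:45999801-46000100, minus strand): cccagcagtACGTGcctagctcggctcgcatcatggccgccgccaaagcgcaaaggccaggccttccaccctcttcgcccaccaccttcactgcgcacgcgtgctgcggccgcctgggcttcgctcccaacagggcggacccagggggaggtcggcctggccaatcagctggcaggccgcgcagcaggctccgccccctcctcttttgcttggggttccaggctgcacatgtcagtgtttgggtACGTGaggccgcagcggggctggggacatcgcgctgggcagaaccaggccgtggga
*Ldha* (GRCm38.p6 chr7:46845554-46845853, plus strand): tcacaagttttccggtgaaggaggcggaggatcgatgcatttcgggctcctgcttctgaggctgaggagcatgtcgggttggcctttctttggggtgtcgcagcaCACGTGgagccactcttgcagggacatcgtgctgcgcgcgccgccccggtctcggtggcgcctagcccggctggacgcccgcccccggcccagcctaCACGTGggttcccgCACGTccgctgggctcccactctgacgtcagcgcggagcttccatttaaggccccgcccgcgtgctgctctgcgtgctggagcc
*Bnip3* (GRCm38.p6 chr7:138909457-138909756, minus strand): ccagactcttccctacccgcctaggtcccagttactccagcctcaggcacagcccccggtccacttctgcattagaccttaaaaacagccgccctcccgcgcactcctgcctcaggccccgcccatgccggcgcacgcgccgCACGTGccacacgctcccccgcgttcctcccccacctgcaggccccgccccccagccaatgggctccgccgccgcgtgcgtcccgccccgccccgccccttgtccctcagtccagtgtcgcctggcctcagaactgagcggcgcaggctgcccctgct
The *Ankrd37* window holds ACGTG at 241 and 6 bases before the start. In the *Ldha* window there are 5 matches in 3 places, since CACGTG reads the same on both strands and counts as a pair, at 145, 48 and 34 bases before the start, while a second RefSeq window of *Ldha* (chr7:46846832-46847131, not shown) holds none. That of *Bnip3* holds 1 such pair, at 108 bases before the start. RefSeq windows were found for 9 of the 10 members (12 windows in all), and *Epas1* had no entry. ACGTG lay in 7 of the 12 windows, from 7 of the 9 genes, against 19.6% of all 32851 windows and 26.5% of the 9690 windows with at least 60% G and C. For *Vegfa* it lay in a window inside the gene (chr17:46025114-46025413). The window that holds the start of *Vegfa* (chr17:46032328-46032627) had neither ACGTG nor GCGTG. The other core, GCGTG, lay in 9 of the 12 windows against 32.4% of all windows and 59.2% of those with at least 60% G and C. *Adm* and *Pdk1* had no ACGTG in these windows. A match is a description of the letters, and binding was not measured.

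After filtering, 3339 untreated and 8558 4OH-tamoxifen cells remained, with medians of 3628 and 2411 UMIs per cell, and 40 barcodes occurred in both libraries. Scrublet marked 0.159% of untreated and 5.31% of 4OH-tamoxifen barcodes as doublets. A cell entered a class when it had at least 2 UMIs of 1 marker and none of the other 7: *Cldn5* (endothelial, 125 untreated and 164 4OH-tamoxifen cells), *Kcnj8* (pericyte, 25 and 20), *Aqp4* (astrocyte, 571 and 1322), *Pdgfra* (oligodendrocyte precursor, 142 and 373), *Mog* (oligodendrocyte, 217 and 775), *C1qa* (microglia, 199 and 340), *Slc32a1* (inhibitory neuron, 25 and 135) and *Slc17a6* (glutamatergic neuron, 10 and 52). Further markers of the class were counted where they stood at least 2-fold above all other cells and had a UMI in at least 10% of the class. In both libraries this held for all 9 markers of the endothelial, pericyte, astrocyte, precursor and microglial gates, at least 8 of 9 for oligodendrocytes and 6 of 7 for each neuron gate, and in *Kcnj8*+ cells also for the fibroblast markers *Col1a2*, *Col3a1* and *Igf2*, the endothelial *Esam*, the smooth muscle *Mylk* and the ependymal *Rarres2*. In the *Cldn5* gate it held for 5 of 9 pericyte markers (*Rgs5*, *Pdgfrb*, *Vtn*, *Higd1b* and *Notch3*), *Igf2* and *Mylk* in the 4OH-tamoxifen library and for *Rgs5* alone of these in the untreated library. The gates left out 60.6% and 62.8% of cells. Levels are UMIs of a gene per 1000000 UMIs of a class (CPM) with an exact 95% Poisson interval, and ratios are untreated over 4OH-tamoxifen with an exact 95% interval. Where the order of classes is given, overlap refers to the range between the values of the 2 libraries.

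Of the 80 pairs of member and class, 47 had at least 20 UMIs over both libraries, and ratios are read for those pairs. Among them 23 were higher on the untreated and 24 on the 4OH-tamoxifen side, and 11 were at least 1.5-fold higher in untreated and 2 in 4OH-tamoxifen cells (after 0.5 UMI was added to each count), against 11.3% and 11.5% of the 53841 pairs of all genes read. The counting interval lay above 1 for 9 pairs, below 1 for 3, and held 1 for 35, and only 5 of the 11 pairs past 1.5-fold had an interval above 1. The members thus did not share 1 direction. *Ldha* was higher in untreated cells of most classes, *Ankrd37* in endothelial cells and *Vegfa* in astrocytes, whereas *Epas1* and *Egln1* were lower in the untreated library, by summed UMIs, in each of the 6 classes where they could be read.

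**Figure D1:**
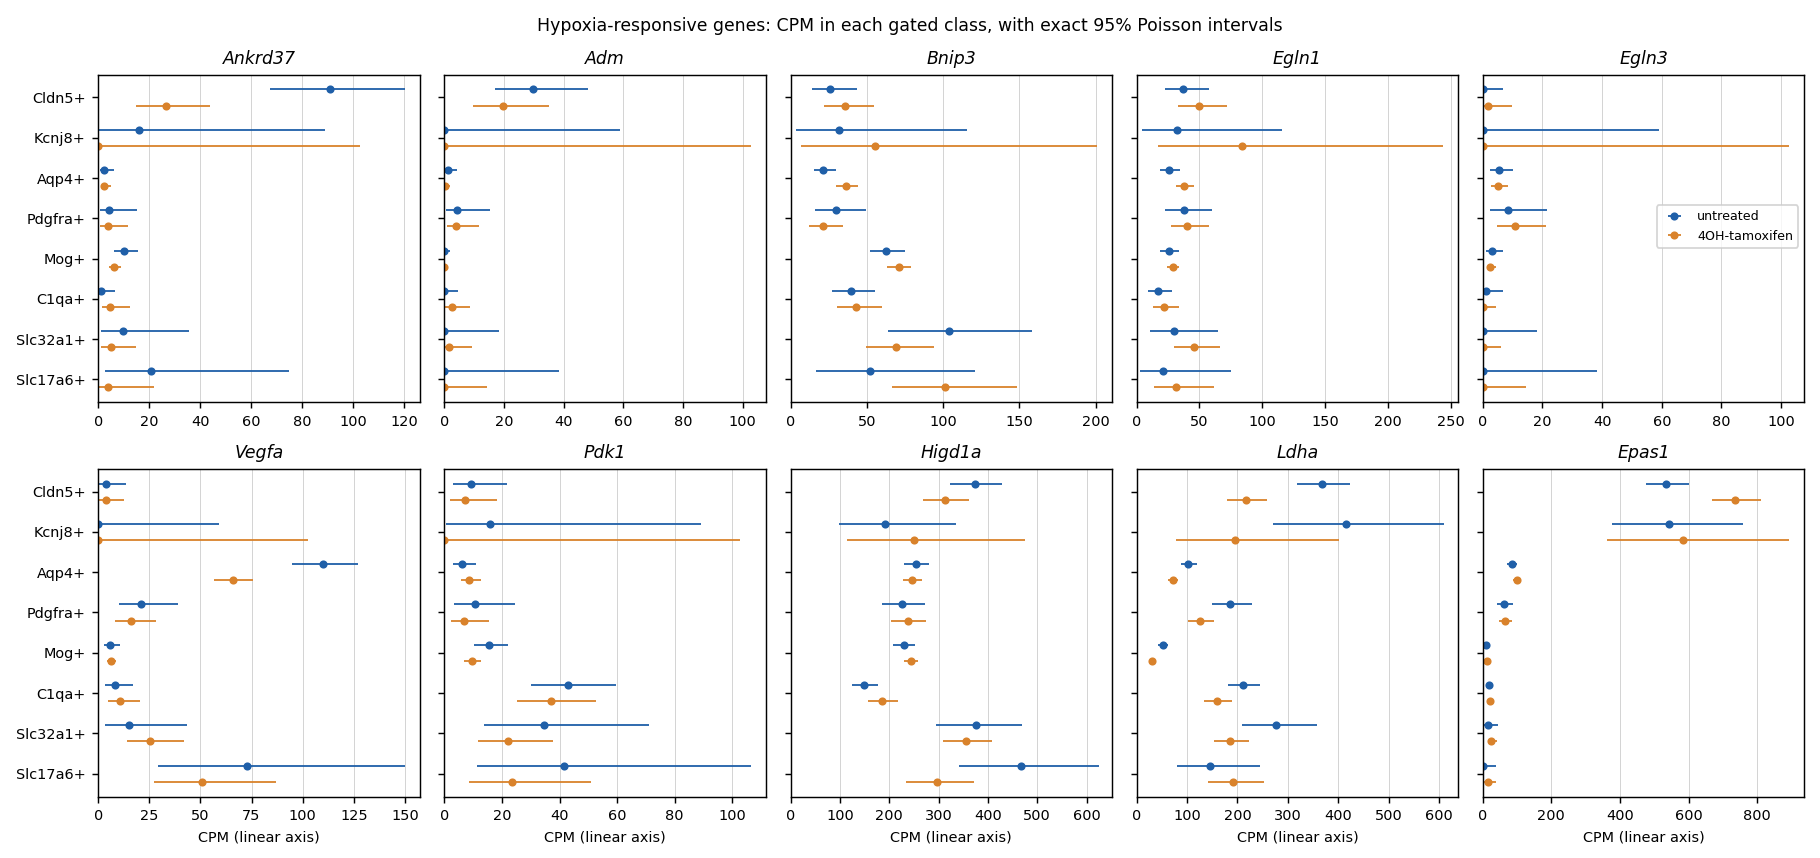
Level of each of the 10 genes in the 8 gated classes, in CPM (x axis, linear, scaled per gene), for the untreated (blue) and 4OH-tamoxifen (orange) library, with points for the libraries and bars for exact 95% Poisson intervals. *Ankrd37* in *Cldn5*+ cells, *Vegfa* in *Aqp4*+ cells and *Ldha* in *Cldn5*+, *Aqp4*+ and *Mog*+ cells are higher in the untreated library with intervals that do not overlap, and *Epas1* in *Cldn5*+ and *Bnip3* in *Aqp4*+ cells are so in the 4OH-tamoxifen library.

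The secreted signals were high in few classes. *Vegfa*, which encodes the growth factor that draws and maintains vessels, was highest in *Aqp4*+ cells, at 110.1 CPM (94.8 to 127) without treatment and 65.7 CPM (56.6 to 75.7) after 4OH-tamoxifen (184 and 189 UMIs). The ratio was 1.68 (1.36 to 2.06), and the intervals of the libraries did not overlap. A UMI of *Vegfa* was found in 26.6% (23.0 to 30.4) of untreated and 13.3% (11.5 to 15.3) of 4OH-tamoxifen cells, against 1.60% and 1.22% of *Cldn5*+ cells, a class with deeper cells. Most of the astrocytes with it held a single UMI, 128 of 152 untreated and 166 of 176 4OH-tamoxifen cells. With every cell thinned to 2000 UMIs, which kept 1204 of 1314 untreated and 2105 of 3181 4OH-tamoxifen gated cells of all classes, the shares were 19.8% and 12.5%. In the *Aqp4*+ cells that had *Gfap*, a gene of fibrous and reactive astrocytes, the ratio was 1.58 (1.18 to 2.12), and in those without it 1.70 (1.26 to 2.32). The summed level of 9 astrocyte markers was 12732 CPM in the untreated and 13144 CPM in the 4OH-tamoxifen *Aqp4*+ cells. That of 9 oligodendrocyte markers in the same cells was 14193 and 17272 CPM, as it was 13937 and 19978 CPM in *Pdgfra*+ and 11202 and 17287 CPM in *C1qa*+ cells, higher in the 4OH-tamoxifen library in all 3 classes. Other sums ran the opposite way, with 6 fibroblast markers at 1357 and 289 CPM in *Pdgfra*+ cells, and 5 border macrophage and 9 microglial markers at 815 and 418 CPM and 25206 and 19847 CPM in *C1qa*+ cells. The part of RNA from these other cells in the ratios was not tested. With at most 10% mitochondrial UMIs the *Vegfa* difference fell short of 1.5-fold, at a log2 ratio of 0.47 against 0.75.

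Outside astrocytes *Vegfa* was next highest in *Slc17a6*+ neurons, at 72.7 and 50.8 CPM in the untreated and 4OH-tamoxifen library, a range that overlapped that of astrocytes and rested on 7 and 13 UMIs. *Slc32a1*+ neurons had 14.8 and 25.3 CPM and *Pdgfra*+ cells 21.1 and 16 CPM, 2 classes whose ranges overlapped. Levels were low in microglia and oligodendrocytes, with 8.36 and 10.8 CPM in *C1qa*+ and 5.82 and 6.22 CPM in *Mog*+ cells. *Cldn5*+ cells had still less, 3.71 and 3.55 CPM. *Kcnj8*+ cells held 0 UMIs, for which the intervals reach up to 59.0 and 102.7 CPM, so no order is read there. The difference between the libraries was read in 3 more classes, with ratios of 1.32 (0.510 to 3.33) in *Pdgfra*+, 0.935 (0.423 to 1.92) in *Mog*+ and 1.43 (0.484 to 3.86) in *Slc17a6*+ cells, whose intervals all held 1.

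*Adm* encodes adrenomedullin, a peptide that widens vessels and tightens the endothelial barrier. In *Cldn5*+ cells, the class with the most UMIs, it stood at 29.7 CPM (17.0 to 48.2) without treatment and 19.5 CPM (9.74 to 34.9) after 4OH-tamoxifen, from 16 and 11 UMIs, and the ratio of 1.52 (0.663 to 3.63) had an interval that held 1. The share of cells with *Adm* was 8.80% (4.48 to 15.2) of untreated and 6.10% (2.96 to 10.9) of 4OH-tamoxifen cells, but after thinning it was 0.909% and 5.08%, so no order of the libraries is read from it. No other class held more than 3 UMIs in either library. In *Kcnj8*+ cells the intervals of 0 UMIs reach up to 59.0 and 102.7 CPM, and in untreated *Slc17a6*+ neurons up to 38.3 CPM. These classes are therefore not placed in order. Of all *Adm* UMIs, 30.3% and 32.7% lay in gated cells. The log2 ratio of *Adm* in *Cldn5*+ cells was just past 1.5-fold (0.59) and fell short of it with a stricter minimum of genes (0.55), a gate of 3 UMIs (0.57), the mean over cells (0.37) and both other scalings (0.55 and 0.57). Over all filtered cells, gated or not, *Adm* stood at 3.89 and 1.85 CPM, a ratio of 2.10 (1.45 to 3.07), beside a *Cldn5* gate that held 3.74% of untreated and 1.92% of 4OH-tamoxifen cells. The part of this share in the ratio was not tested.

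Among the receptor genes for these signals, *Kdr*, *Flt1* and *Ramp2* were most abundant in *Cldn5*+ cells, while *Nrp2*, a coreceptor, was highest in *Slc17a6*+ neurons at 104 and 117 CPM. In *Cldn5*+ cells *Kdr*, the main signalling receptor for VEGFA, was at 880.1 and 976 CPM in the untreated and 4OH-tamoxifen library (ratio 0.902 (0.796 to 1.02)), and *Flt1*, its decoy receptor, at 1359 and 1593 CPM (ratio 0.853 (0.773 to 0.942)). *Ramp2*, the subunit that makes the calcitonin receptor-like receptor an adrenomedullin receptor, stood at 1601 and 1084 CPM in these cells (ratio 1.48 (1.33 to 1.64)) and at 83.2 and 42.7 CPM in *Aqp4*+ cells (ratio 1.95 (1.52 to 2.50)). Its partner *Calcrl* had ratios of 1.05 (0.680 to 1.61) and 1.72 (0.949 to 3.12) in the same 2 classes. Of the 24 pairs read for the 7 receptor genes, 3 were at least 1.5-fold higher in the untreated library (*Calcrl* and *Ramp2* in *Aqp4*+ cells and *Nrp1* in *Slc17a6*+ neurons) and 1 in the 4OH-tamoxifen library (*Kdr* in *Mog*+ cells), or 12.5% and 4.17% against 11.3% and 11.5% of all pairs. These receptor genes were named after their values were seen.

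Other ligands and matrix enzymes of the hypoxia response, 13 genes with 31 pairs read, were past 1.5-fold in 6 pairs (19.4%) toward the untreated and 3 (9.68%) toward the 4OH-tamoxifen library, where all genes had 11.3% and 11.5%. In *Cldn5*+ cells the genes went both ways. *Angptl4*, an inhibitor of lipoprotein lipase, was at 92.8 and 49.7 CPM (ratio 1.87 (1.15 to 3.08)), while *Edn1*, which encodes the vessel-constricting peptide endothelin-1, was at 108 and 234 CPM (ratio 0.460 (0.332 to 0.631)). Both were named after their values were seen.

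*Ankrd37*, a small ankyrin-repeat protein gene induced by HIF-1, showed the largest ratio of the 47 pairs. In *Cldn5*+ cells it stood at 91.0 CPM (67.3 to 120.3) without treatment and 26.6 CPM (14.9 to 43.9) after 4OH-tamoxifen, from 49 and 15 UMIs, and the ratio was 3.42 (1.89 to 6.56). The transcript was found in 21.6% (14.7 to 29.8) of untreated and 8.54% (4.75 to 13.9) of 4OH-tamoxifen cells, and in 14.5% and 5.08% after thinning to 2000 UMIs. Of the endothelial cells with the transcript, 7 untreated cells held 2 and 5 held 3 or more UMIs, against 1 and 0 cells in the 4OH-tamoxifen library. Across the 14 alternative ways of filtering, gating and scaling, the ratio after adding 0.5 UMI lay between 2.58 and 4.12. The summed level of 9 endothelial markers in the same gate was 9637 and 7911 CPM, and that of 9 pericyte markers 771 and 1405 CPM, with UMIs of all 9 pericyte markers in both libraries. The endothelial sum was thus higher in the same library as *Ankrd37* and the pericyte sum lower, and their part in the ratio was not tested.

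In the other classes *Ankrd37* had lower values, except that *Kcnj8*+ cells, with 1 and 0 UMIs, could not be placed. *Mog*+ cells had 10.0 and 6.22 CPM (19 and 30 UMIs), a ratio of 1.62 (0.859 to 2.97) that held 1. Among the classes with too few UMIs to read a ratio, *Aqp4*+ cells had 2.39 and 2.43 CPM and *C1qa*+ cells 1.19 and 4.79 CPM. A UMI was found in 0.701% (0.191 to 1.78) of untreated and 0.454% (0.167 to 0.985) of 4OH-tamoxifen cells of the *Aqp4* gate, a class with almost none of the transcript, at median depths of 2652 and 2011.5 UMIs in that class against 3412 and 2596 in *Cldn5*+ cells. Over all filtered cells the ratio of *Ankrd37* was 2.18 (1.82 to 2.62), with 270 and 217 UMIs, of which 29.6% and 29.0% lay in gated cells.

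*Ldha*, which encodes the lactate dehydrogenase subunit that favours the making of lactate from pyruvate, was higher in the untreated library in 7 of 8 classes. It was most abundant in vessel cells. *Cldn5*+ cells had 368 CPM (318 to 423) without treatment and 216 CPM (179.7 to 258) after 4OH-tamoxifen, and *Kcnj8*+ cells 416 CPM (272 to 609) without treatment and 195 CPM (78.3 to 401) after 4OH-tamoxifen. The first pair of intervals did not overlap, whereas the second did, with 26 and 7 UMIs behind it. *Slc32a1*+ neurons had 276 and 186 CPM, *C1qa*+ cells 211 and 159 CPM, *Slc17a6*+ neurons 145 and 191 CPM and *Pdgfra*+ cells 186 and 126 CPM in the untreated and 4OH-tamoxifen library, and the ranges of neighbouring classes overlapped down to this point. Astrocytes were lower, at 103 and 71.6 CPM, and *Mog*+ cells lowest, at 51.8 and 29.9 CPM, each apart from the class above it in both libraries.

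The ratio of *Ldha* was 1.70 (1.35 to 2.15) in *Cldn5*+, 2.13 (0.902 to 5.83) in *Kcnj8*+ and 1.74 (1.33 to 2.26) in *Mog*+ cells, the 3 classes past 1.5-fold. In *Kcnj8*+ cells the order was the opposite with a stricter minimum of genes per cell, at a log2 ratio of -0.077 against 1.02. It was 1.44 (1.17 to 1.77) in *Aqp4*+, 1.48 (1.09 to 2.00) in *Pdgfra*+, 1.33 (1.05 to 1.67) in *C1qa*+ and 1.49 (1.06 to 2.07) in *Slc32a1*+ cells. The fibroblast markers in *Pdgfra*+ and the border macrophage markers in *C1qa*+ cells, given above, were higher in the same library, as was the endothelial sum in *Cldn5*+ cells, given for *Ankrd37*. In untreated and 4OH-tamoxifen *Kcnj8*+ cells the sums were 21895 and 16196 CPM for pericyte, 864 and 501 CPM for fibroblast and 928 and 2004 CPM for astrocyte markers. The part of such markers in the *Ldha* ratios was not tested. The *Ldha* ratio went the other way only in *Slc17a6*+ neurons, at 0.760 (0.387 to 1.40), with 10 untreated cells. The interval lay above 1 in 6 classes, but in 3 with a stricter minimum of genes per cell and in 3 after thinning to 2000 UMIs. Among the 601 genes that could be read in all 8 classes, 3.16% were at least 1.5-fold higher in the untreated library in 3 or more classes, as *Ldha* was, and 18.1% were higher at any size in 7 or more. In *Mog*+ cells the ratio was 2.02 (1.22 to 3.34) among those with *Opalin*, a gene of mature oligodendrocytes, and 2.01 (1.46 to 2.76) among those without it, although cells with *Opalin* had the lower level in each library, 28.5 and 14.1 CPM against 91.5 and 45.4 CPM. In *Aqp4*+ cells it was 1.66 (1.26 to 2.19) with and 1.17 (0.848 to 1.61) without *Gfap*.

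The share of cells with *Ldha* was 65.6% (56.6 to 73.9) of untreated and 46.3% (38.5 to 54.3) of 4OH-tamoxifen cells in the *Cldn5* gate, and 50.9% and 33.9% after thinning. *Mog*+ cells showed 28.6% (22.7 to 35.1) of untreated and 13.0% (10.7 to 15.6) of 4OH-tamoxifen cells, and 11.6% and 5.70% after thinning. In microglia the unthinned shares of 45.2% and 28.8% came to 27.9% and 27.1% at equal depth, and the log2 ratio of 0.41 was 0.03 in the thinned cells. In the small *Kcnj8* gate the thinned shares were 36.8% and 40.0%, of only 19 and 5 cells. Those in the *Slc17a6* gate were 20% and 33.3%, of 10 and 48 cells.

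**Figure D2:**
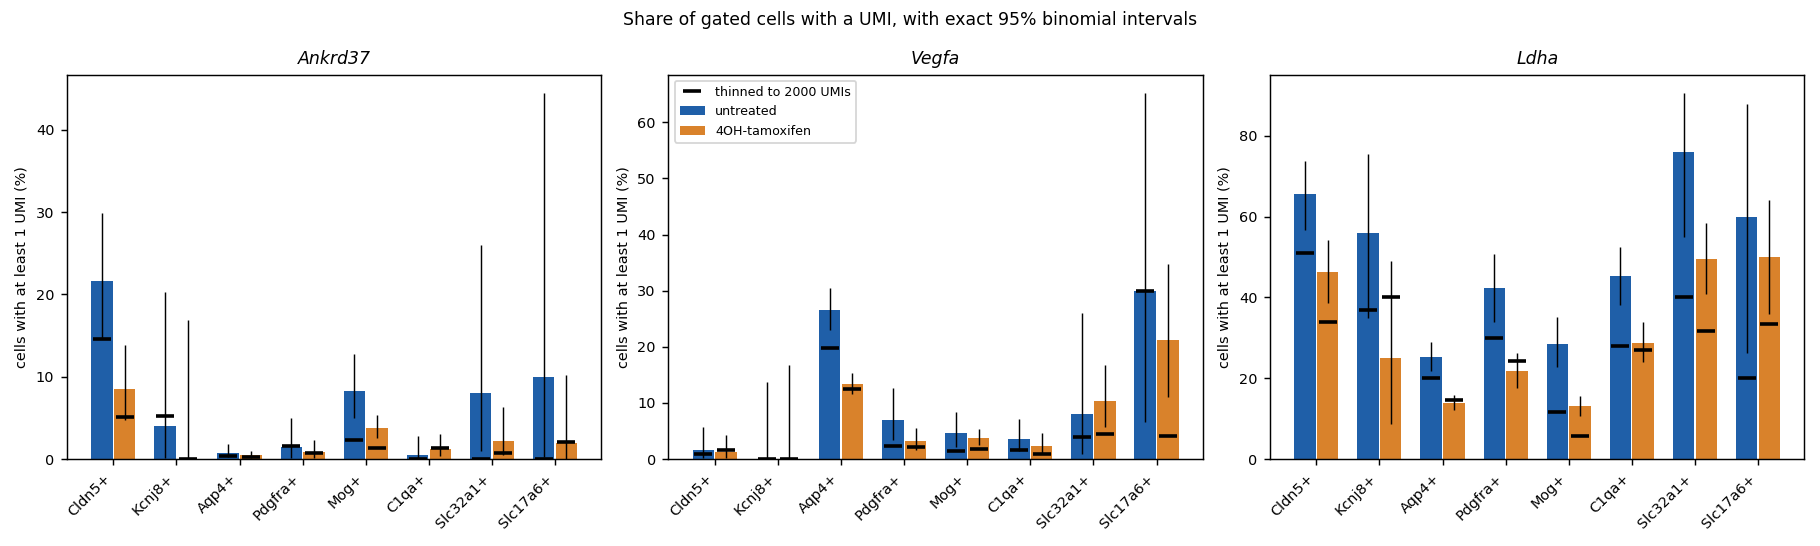
Share of gated cells with at least 1 UMI of *Ankrd37*, *Vegfa* and *Ldha* (y axes, percent of cells) in the untreated (blue) and 4OH-tamoxifen (orange) library, with exact 95% binomial intervals as bars and the share after thinning to 2000 UMIs as black marks. The libraries differ at equal depth for *Ankrd37* in *Cldn5*+ cells (14.5% and 5.08%) and *Vegfa* in *Aqp4*+ cells (19.8% and 12.5%), and less for *Ldha* in *C1qa*+ cells.

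The rest of glycolysis did not follow *Ldha* at this size. Of 123 pairs read for 22 genes of glucose uptake and glycolysis, 5 (4.07%) were at least 1.5-fold higher in the untreated library and 13 (10.6%) in the 4OH-tamoxifen library, against 11.3% and 11.5% of the pairs of all genes. *Eno1*, the enolase of most cells, was higher in the untreated library in 8 of 8 classes (as 5.49% of the 601 genes read in all 8 were) but never past 1.5-fold, with 484 and 360.3 CPM in *Aqp4*+ cells (ratio 1.34 (1.22 to 1.47)). *Aldoc*, the brain aldolase, was lower in the untreated library in 8 of 8 classes (as 9.32% were), with 395 and 659 CPM in *Pdgfra*+ cells (ratio 0.600 (0.504 to 0.711)). *Slc2a3*, the neuronal glucose transporter, was past 1.5-fold toward the 4OH-tamoxifen library in 3 of 5 classes (as were 3.5% of the 1713 genes read in 5 classes, in 3 or more), with ratios of 0.492 (0.194 to 1.11), 0.527 (0.189 to 1.29) and 0.403 (0.0763 to 1.37) in *Aqp4*+, *Pdgfra*+ and *Mog*+ cells, from at most 28 UMIs in a library, and was most abundant in *Slc32a1*+ neurons at 133 and 171 CPM. *Eno1* and *Aldoc* were named after their values were seen. *Ldha* and several glycolytic genes have near-identical copies as pseudogenes. How reads shared with such copies were counted was not examined, so these levels are uncertain.

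*Pdk1* encodes a mitochondrial kinase that inhibits pyruvate dehydrogenase and so keeps pyruvate out of the citric acid cycle. Microglia had the highest level of the classes with at least 20 UMIs, 43.0 CPM (30.1 to 59.5) without treatment and 37.1 CPM (25.2 to 52.7) after 4OH-tamoxifen, with a ratio of 1.16 (0.696 to 1.94). The neuron gates came next and overlapped it, at 41.6 and 23.4 CPM in *Slc17a6*+ and 34.6 and 22.0 CPM in *Slc32a1*+ cells. A pair of classes was past 1.5-fold toward the untreated library, *Mog*+ cells with 15.3 and 9.54 CPM (29 and 46 UMIs, ratio 1.61 (0.974 to 2.61)) and *Slc32a1*+ neurons with 7 and 13 UMIs (ratio 1.57 (0.532 to 4.24)), and both intervals held 1. In *Slc32a1*+ neurons the order was the opposite with a wider gate that allows some UMIs of other markers, at a log2 ratio of -0.21. In *Aqp4*+ cells the levels were 5.98 and 8.69 CPM (ratio 0.689 (0.295 to 1.48)). *Cldn5*+ cells had 9.28 and 7.10 CPM and *Pdgfra*+ cells 10.6 and 6.68 CPM, while *Kcnj8*+ cells held 1 and 0 UMIs, too few to place them.

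For *Epas1* and *Egln1* the order of the libraries was the reverse. *Epas1*, for HIF-2α, was by far most abundant in vessel cells, with 535 CPM (475 to 600.2) without treatment and 736 CPM (667 to 811) after 4OH-tamoxifen for *Cldn5*+ cells and 544 and 584 CPM for *Kcnj8*+ cells, ranges that overlapped. Its ratio in *Cldn5*+ cells was 0.726 (0.623 to 0.846), and the intervals of the libraries did not overlap. Astrocytes followed with 85.0 and 100.1 CPM and precursors with 61.3 and 64.1 CPM. The remaining classes had values of at most 25.3 CPM, although the interval of 0 UMIs in untreated *Slc17a6*+ neurons reaches up to 38.3 CPM. *Epas1* was lower in the untreated library in 6 of 6 classes that could be read, by ratios between 0.726 and 0.956, 5 of them with an interval that held 1. Of the 1923 genes that could be read in 6 classes, 5.77% were lower in the untreated library in all 6. Over all filtered cells the order was the opposite, 98.4 and 84.2 CPM (ratio 1.17, 1.10 to 1.24), beside the larger share of *Cldn5*+ cells in the untreated library. Pericyte markers, as given for *Ankrd37*, were higher in the 4OH-tamoxifen *Cldn5* gate, and their part in the *Epas1* ratio was not tested.

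*Egln1*, the main oxygen sensor of most cells, lay between 16.7 and 49.7 CPM in the 6 classes that could be read. Neighbours in the order of these classes overlapped, except that *Mog*+ cells (25.4 and 28.6 CPM) stood above *C1qa*+ cells (16.7 and 21.6 CPM). *Egln1* was lower in the untreated library in 6 of 6, as 5.77% of the genes read in 6 classes were. In *Aqp4*+ cells it stood at 25.7 CPM (18.6 to 34.7) without treatment and 37.9 CPM (31.1 to 45.7) after 4OH-tamoxifen, a ratio of 0.679 (0.466 to 0.975). The other 5 ratios, from 0.650 in *Slc32a1*+ to 0.949 in *Pdgfra*+ cells, had intervals that held 1. At equal depth *Egln1* was lower in the untreated library in 2 of the 3 classes that still had 20 UMIs, with log2 ratios of -0.74 in *Aqp4*+, -0.25 in *Mog*+ and 0.11 in *Pdgfra*+ cells.

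*Egln3*, a sensor that HIF itself induces, was scarce. *Pdgfra*+ cells had 8.46 and 10.7 CPM (4 and 8 UMIs), astrocytes 5.39 and 5.21 CPM (9 and 15 UMIs, ratio 1.03 (0.399 to 2.52)) and *Mog*+ cells 3.17 and 2.49 CPM, and the ranges of these neighbouring classes did not overlap, although their counting intervals did. The other 5 classes held at most 1 UMI in a library. A difference between the libraries was not detectable for *Egln3* at this depth.

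The other 8 genes of oxygen sensing, with 40 pairs read, gave 5 pairs (12.5%) past 1.5-fold toward the untreated and 4 (10%) toward the 4OH-tamoxifen library, close to the 11.3% and 11.5% of all genes. *Hif1a*, the HIF subunit found in most cells, stayed between 0.754 and 0.997 in ratio over 7 classes, with 206 and 234 CPM in *Aqp4*+ cells (ratio 0.883 (0.773 to 1.01)). In the same astrocytes *Hif3a*, a HIF subunit that can act as an inhibitor, was at 11.4 and 26.1 CPM (ratio 0.436 (0.249 to 0.729)), *Arnt2*, the neural ARNT partner, at 37.1 and 58.7 CPM (ratio 0.632 (0.464 to 0.850)) and *Vhl*, which marks hydroxylated HIF for breakdown, at 46.7 and 63.2 CPM (ratio 0.738 (0.559 to 0.967)). All 8 of these genes in *Aqp4*+ cells had a median log2 ratio of -0.38, against -0.00 for all 10998 genes read there. In the other 6 classes with any of them read, the median over 4 to 7 genes ran from -0.49 in *Slc32a1*+ to 0.39 in *Slc17a6*+ neurons, with 0.05 in *Mog*+ cells, and *Arnt2* was past 1.5-fold toward the untreated library in *Slc17a6*+ neurons, at 1.66 (0.674 to 3.90). These genes were named after their values were seen.

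The order of the libraries held under both other scalings of the totals for *Epas1* and *Egln1* (6 of 6 classes each) but not under every other choice. With the mean over cells in place of summed UMIs *Epas1* was lower in the untreated library in 4 of 6 classes, and with every cell thinned to 2000 UMIs in 3 of 5. With a limit of 10% mitochondrial UMIs *Egln1* was lower in 3 of 5, and its log2 ratio in *Aqp4*+ cells, -0.55 as given, was 0.0032 there and -0.0099 with the stricter minimum of genes.

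*Bnip3* encodes a protein of the outer mitochondrial membrane that marks mitochondria for removal. Of the 7 classes that could be read it was highest in neurons and oligodendrocytes, with 104 and 69.3 CPM in *Slc32a1*+, 51.9 and 102 CPM in *Slc17a6*+ and 62.9 and 70.9 CPM in *Mog*+ cells, whose ranges overlapped. Astrocytes had 21.5 CPM (15.1 to 29.8) without treatment and 36.5 CPM (29.8 to 44.2) after 4OH-tamoxifen, a ratio of 0.590 (0.393 to 0.870), past 1.5-fold toward the 4OH-tamoxifen library. With a gate of 1 UMI it fell short of that, at a log2 ratio of -0.47 against -0.75. The ratio was 0.651 (0.378 to 1.08) in *Aqp4*+ cells with *Gfap* and 0.515 (0.265 to 0.950) in those without. *Slc17a6*+ neurons leaned the same way, 0.511 (0.153 to 1.35), from 5 and 26 UMIs, and *Slc32a1*+ neurons the other way, 1.5 (0.840 to 2.59), both with intervals that held 1. Neither call held throughout, since the log2 ratio of -0.86 in *Slc17a6*+ neurons was -0.06 with the mean over cells and -0.46 with at most 10% mitochondrial UMIs, and that of 0.60 in *Slc32a1*+ neurons was 0.16 after thinning and 0.23 with the wider gate. In *Mog*+ cells, the class with the most UMIs of *Bnip3* (119 and 342 UMIs), the ratio was 0.887 (0.714 to 1.10), an interval that holds 1, with 1.02 (0.775 to 1.33) among the cells with *Opalin* and 0.688 (0.464 to 0.993) among those without it.

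*Higd1a*, for a small protein of the inner mitochondrial membrane, was higher in the untreated library in 4 of 8 classes and differed little in the classes with the most UMIs. In *Aqp4*+ cells it stood at 254 CPM (231 to 279.7) without treatment and 247 CPM (229 to 266) after 4OH-tamoxifen (425 and 710 UMIs), a ratio of 1.03 (0.912 to 1.16), and in *Mog*+ cells at 229 and 244 CPM (ratio 0.942 (0.842 to 1.05)). Neurons and *Cldn5*+ cells had the highest levels, 375 and 356 CPM in *Slc32a1*+ and 373 and 312 CPM in *Cldn5*+ cells (ratio 1.20 (0.971 to 1.47)), and microglia the lowest, 149 and 186 CPM (ratio 0.804 (0.630 to 1.02)). The ratio of 1.57 (1.06 to 2.31) in *Slc17a6*+ neurons was past 1.5-fold, from 45 and 76 UMIs in 10 and 52 cells. Of the 45 UMIs 13 lay in 1 cell, and the log2 ratio of 0.66 fell short of 1.5-fold with the mean over cells (0.56) and with the wider gate (0.28). The share of cells with *Higd1a* was 49.0% of untreated and 41.2% of 4OH-tamoxifen *Aqp4*+ cells before thinning. It was 36.1% and 40.0% in the 504 of 571 and 682 of 1322 cells that were deep enough to be thinned to 2000 UMIs.

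Other mitochondrial hypoxia targets (8 genes, 37 pairs read) were past 1.5-fold toward the untreated library in 4 pairs (10.8%) and toward the 4OH-tamoxifen library in 3 (8.11%), beside 11.3% and 11.5% for all genes. *Ndufa4l2*, a complex I-related protein abundant in pericytes, had 1727 and 1197 CPM in *Kcnj8*+ cells and 31.6 and 99.4 CPM in *Cldn5*+ cells (ratio 0.318 (0.173 to 0.555)), where pericyte markers were also higher in the 4OH-tamoxifen library. In *Aqp4*+ cells its ratio was 1.88 (0.759 to 4.70), from 12 and 11 UMIs. *Bnip3l*, the close relative of *Bnip3*, had ratios of 1.32 (1.08 to 1.63) in *Cldn5*+, 1.35 (1.04 to 1.75) in *C1qa*+ 0.445 (0.169 to 0.992) in *Slc32a1*+ and 1.77 (0.712 to 4.22) in *Slc17a6*+ cells, the last from 10 and 15 UMIs. Both genes were named after their values were seen.

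**Figure D3:**
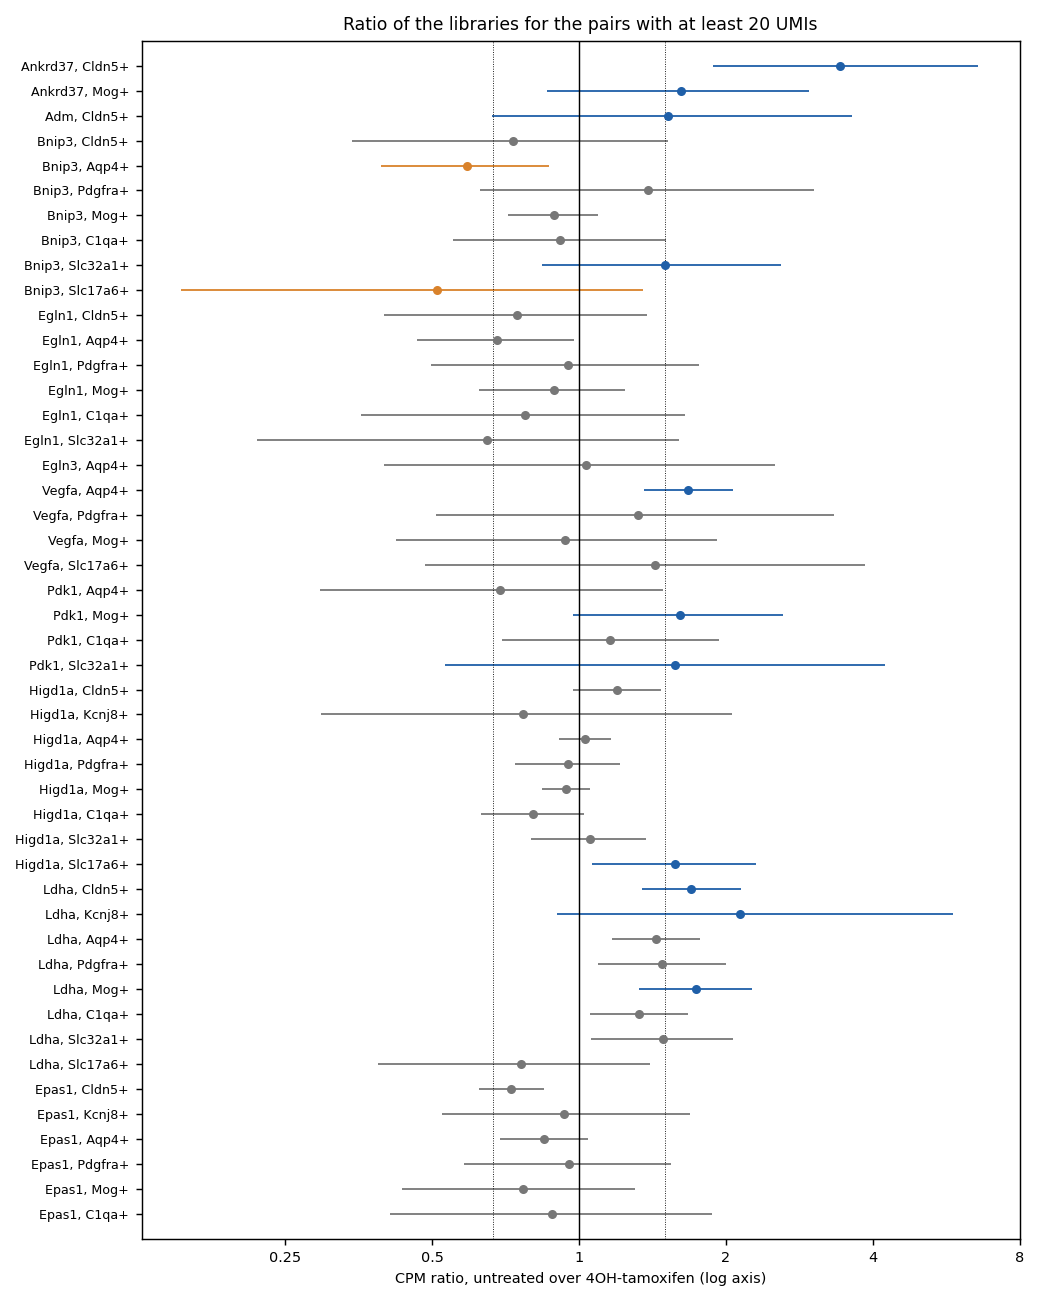
Ratio of CPM, untreated over 4OH-tamoxifen (x axis, log scale), for the 47 pairs of gene and class with at least 20 UMIs, with exact 95% intervals. Blue points are at least 1.5-fold higher in the untreated library (11 pairs), orange points in the 4OH-tamoxifen library (2 pairs), and dotted lines mark 1.5-fold. The *Ldha* points lie right of 1 in 7 of 8 classes and the *Epas1* and *Egln1* points left of 1 in all 6 each.

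The cells outside every gate, which held most UMIs of each member, are a mixture whose make-up was not resolved. In them *Ankrd37* stood at 16.9 and 8.09 CPM, *Ldha* at 163 and 105 CPM and *Adm* at 4.10 and 1.94 CPM in the untreated and 4OH-tamoxifen library, the same order as in the gated classes past 1.5-fold. *Vegfa* was at 23.1 and 23.0 CPM there, *Higd1a* at 262 and 252 CPM and *Epas1* at 102 and 85.9 CPM. Over all filtered cells the ratio was 1.63 (1.55 to 1.72) for *Ldha*, 1.20 (1.06 to 1.34) for *Vegfa*, 0.866 (0.794 to 0.943) for *Bnip3* and 1.02 (0.984 to 1.06) for *Higd1a*. A ratio over all cells mixes the level within a class with the share of each class.

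Class by class, the members past 1.5-fold are read against the share of all genes with 20 UMIs that passed the same fold. In *Cldn5*+ cells 3 of 7 members (*Ankrd37*, *Adm* and *Ldha*) were higher in the untreated library and 0 in the 4OH-tamoxifen library, against 12.5% and 11.2% of all genes. In *Mog*+ cells it was 3 of 8 (*Ankrd37*, *Pdk1* and *Ldha*) and 0, against 8.96% and 6.83%, but with a gate that allows some UMIs of other markers all 3 fell short of 1.5-fold, at log2 ratios of 0.35, 0.16 and 0.38. *Slc32a1*+ neurons had 2 of 5 (*Bnip3* and *Pdk1*) and 0, against 11.2% and 15.4%. *Aqp4*+ cells had 1 of 8 (*Vegfa*) and 1 (*Bnip3*), against 8.65% and 11.1%, and *Slc17a6*+ neurons 1 of 4 (*Higd1a*) and 1 (*Bnip3*), against 16.7% and 18.1%. *Kcnj8*+ cells had 1 of 3 (*Ldha*) and 0, against 21.2% and 11.6%. *Pdgfra*+ cells had 0 of 6 in either direction, against 15.0% and 10.0%, and *C1qa*+ cells likewise 0 of 6, against 10.2% and 13.5%. The median log2 ratio of the members was 0.26 in *Cldn5*+, -0.12 in *Kcnj8*+, -0.09 in *Aqp4*+, 0.18 in *Pdgfra*+, -0.07 in *Mog*+, -0.15 in *C1qa*+, 0.58 in *Slc32a1*+ and 0.10 in *Slc17a6*+ cells, while that of all genes lay between -0.04 and 0.07. With so few members in a class, and members that were chosen with these values known, the shares describe the list and test nothing.

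Over the 8 classes the members reached 23.4% of pairs toward the untreated and 4.26% toward the 4OH-tamoxifen library, against 11.3% and 11.5% of all pairs read. The 75 other genes of the hypoxia lists reached 32 (9.79%) and 27 (8.26%) of 327 pairs, near the share of all genes in both directions. Of the remaining hypoxia targets (17 genes, 72 pairs read), 9 pairs (12.5%) were past 1.5-fold toward the untreated and 3 (4.17%) toward the 4OH-tamoxifen library. *Hmox1*, the heme-degrading enzyme heme oxygenase 1, was past it in 3 of 5 classes (4.67% of the 1713 genes read in 5 classes were so in 3 or more), with ratios of 1.88 (1.01 to 3.51) in *Aqp4*+, 1.58 (0.726 to 3.30) in *Mog*+ and 1.63 (0.934 to 2.91) in *C1qa*+ cells. *Wsb1*, which belongs to a ubiquitin ligase, was past it in 3 of 7 (3.51% of 2054 genes), with 1.96 (1.12 to 3.47) in *Pdgfra*+, 1.83 (1.23 to 2.72) in *Mog*+ and 1.52 (0.681 to 3.23) in *Slc17a6*+ cells. Among other widely used hypoxia targets, *Ddit4* had ratios between 0.733 and 1.15 over 6 classes and *Pgk1*, read in 4 classes, was past 1.5-fold in *Slc32a1*+ neurons at 1.54 (0.639 to 3.48) and had 1.16 (0.759 to 1.75) in *Aqp4*+ cells, all with intervals that held 1. Both were named after their values were seen.

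A pair of other gene lists differed in more of their pairs between the libraries than the members did. Of 68 pairs read for 15 immediate early and dissociation genes, which cells switch on within minutes of handling, 29 (42.6%) were at least 1.5-fold higher in untreated cells and 3 (4.41%) in 4OH-tamoxifen cells. *Fos* had 50.1 and 10.6 CPM in *Cldn5*+ cells (ratio 4.71 (1.90 to 13.9)) and 332 and 140.3 CPM in *Pdgfra*+ cells (ratio 2.37 (1.84 to 3.06)). Its partner *Jun* had ratios of 2.07 (1.65 to 2.62) and 2.70 (2.22 to 3.28) in these classes and 1.96 (1.76 to 2.18) in *C1qa*+ cells, and *Junb* reached 6.80 (3.68 to 13.3) in *Mog*+ cells. *Egr1* and *Ier2* were past 1.5-fold in 4 of 5 classes each, as 1.23% of the genes read in 5 classes were in 4 or more, and *Jund* in 3 of 8, as 3.16% were. Toward the untreated library, *Pdgfra*+ cells had 8 of 11 immediate early genes and 0 of 6 members past 1.5-fold (15.0% of all genes). *C1qa*+ cells had 9 of 14 and 0 of 6 (10.2%), and *Cldn5*+ cells 6 of 13 and 3 of 7 (12.5%). In *Mog*+ cells it was 3 of 11 and 3 of 8 (8.96%), and in *Aqp4*+ cells 2 of 11 and 1 of 8 (8.65%). *Slc32a1*+ neurons had 0 of 3 and 2 of 5 (11.2%) and *Slc17a6*+ neurons 1 of 3 and 1 of 4 (16.7%). For *Kcnj8*+ cells it was 0 of 2 and 1 of 3 (21.2%).

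In the opposite direction, 21 of 52 pairs (40.4%) of 12 glucocorticoid-responsive genes were at least 1.5-fold higher in the 4OH-tamoxifen library and 1 in the untreated library. Of the 21, 15 were pairs of the metallothioneins *Mt1* and *Mt2*, metal-binding proteins, past 1.5-fold in 7 and 8 of 8 classes (0.832% of the 601 genes read in all 8 were so in 7 or more), with *Mt1* at 4934 and 8921 CPM in *Aqp4*+ cells (ratio 0.553 (0.539 to 0.567)) and *Mt2* at 93.8 and 318 CPM in *Slc32a1*+ neurons (ratio 0.295 (0.174 to 0.474)). Both lists are given as values that differ between the same libraries as the members, and their part in the members' ratios was not tested.

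**Figure D4:**
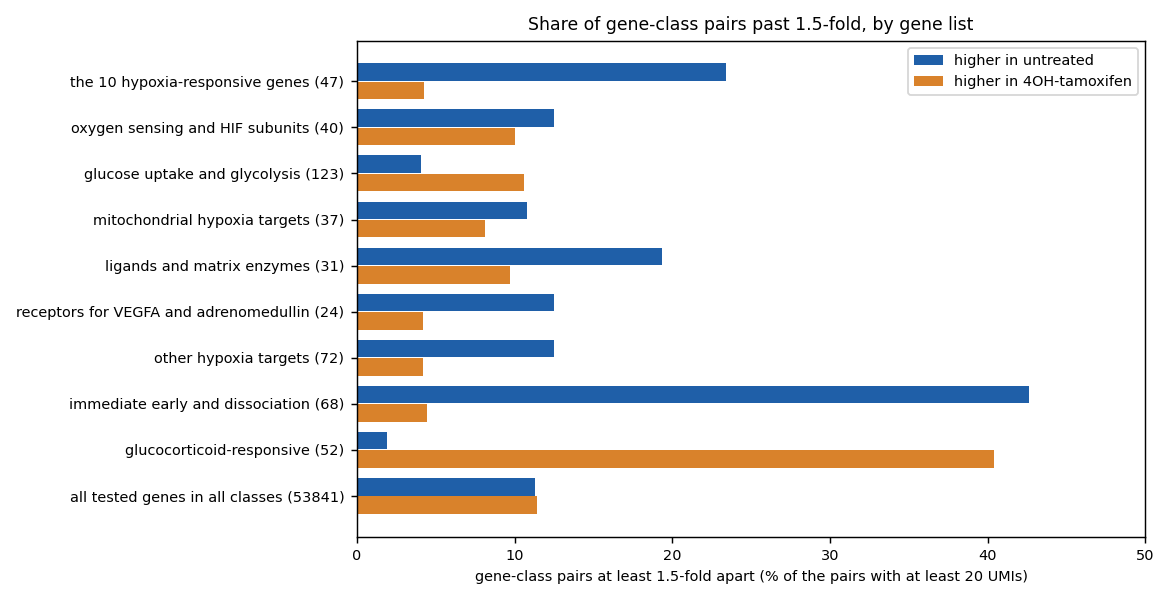
Share of gene-class pairs at least 1.5-fold higher in the untreated (blue) or 4OH-tamoxifen (orange) library (x axis, percent of pairs with at least 20 UMIs), for the 10 genes, 6 other hypoxia lists, 2 comparison lists and all genes, with the number of pairs in brackets. The immediate early genes reach 42.6% toward the untreated and the glucocorticoid-responsive genes 40.4% toward the 4OH-tamoxifen library, while all genes stand at 11.3% and 11.5%.

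The genes whose levels were most like those of a member over the 16 values (8 classes in 2 libraries) are given with Pearson's r of log2(CPM + 10), among 6368 genes with at least 50 CPM in both libraries of a class. The values of a library share their cells and depth, so r is a description. For *Epas1*, which varied most (a range of 6.22 on the log2 scale), they were *Hes1* (0.99), *Tmem51* (0.98), *Rab13* (0.97). Those for *Vegfa* were *Gabrg1* (0.94), *Dclk1* (0.92), *Them4* (0.91), for *Adm* *Trim16* (0.99), *Tcf7* (0.97), *Proser2* (0.97), and for *Ankrd37* *Dok4* (0.92), *Nampt* (0.92), *Eogt* (0.89). *Adm* had at most 3 UMIs in a library outside *Cldn5*+ cells and *Egln3* at most 15 in any class. Their ranges on the log2 scale were 1.99 and 1.05, so their r rests on few UMIs. *Ldha* was most like *Fundc2* (0.88), *Rbbp7* (0.87), *Nrbp1* (0.86), *Pdk1* most like *Scoc* (0.90), *Tubgcp5* (0.87), *Arrb2* (0.87), and *Higd1a* most like *Gabarapl1* (0.91), *Ireb2* (0.89), *Nisch* (0.88). *Bnip3* gave *Slc24a2* (0.89), *Adap1* (0.85), *Auh* (0.85), *Egln1* *Rsf1* (0.88), *Ssrp1* (0.83), *Zfp91* (0.82) and *Egln3* *Matn4* (0.92), *Bmp7* (0.92), *Olig2* (0.90). Of the 10, *Ankrd37*, *Adm*, *Egln1*, *Egln3* and *Pdk1* did not reach 50 CPM in both libraries of any class and so could not be found as neighbours. None of the other members was among the 3 nearest genes of another member.

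All 10 genes are protein-coding. On GRCm38 in the GENCODE vM21 annotation, *Ankrd37* lies at chr8:45996902-46005707 and *Ldha* at chr7:46841475-46855627, *Vegfa* at chr17:46016993-46032369, *Epas1* at chr17:86753700-86833410 and *Bnip3* at chr7:138890836-138909519, and the library type counts reads from the 3′ end of transcripts. The span of *Ankrd37* overlaps *Lrp2bp* and *Ufsp2* on the other strand, that of *Bnip3* overlaps 2 gene models on the other strand, and that of *Epas1* overlaps 1 gene model on its own strand.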

How the data were processed

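Single-cell RNA sequencing (10x Genomics, 3′ chemistry v2) was carried out on 2 libraries, each from a pool of 8 mice. The authors made the deposited counts with bcl2fastq 2.18.0.12 and Cell Ranger 2.2.0 on the mm10 genome, and each value is an un-normalized count of unique molecular identifiers (UMIs) per gene and barcode. The labels gave each library its group. From there, barcodes called doublets by Scrublet (scanpy 1.11.5, seed 0, 2 simulated doublets per cell) were removed. Kept were barcodes with at least 800 genes, at most 50 UMIs of hemoglobin genes and at most 20% of UMIs from mitochondrial genes. Scrublet marked 6 of 3767 untreated and 544 of 10241 4OH-tamoxifen barcodes, so in the untreated library it did little and doublets may remain there. Cells were put into 8 classes by gates of 1 marker each, and UMIs were summed per class and library (18496942 and 34704167 UMIs in the libraries before filtering).

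CPM carry exact 95% Poisson intervals and shares of cells exact Clopper-Pearson intervals. Ratios of CPM carry the exact conditional interval for a pair of Poisson counts (scipy 1.17.1, numpy 2.4.6, pandas 2.3.3, Python 3.11.15). Intervals cover counting error only, and molecules of 1 cell are not independent samples. A pair of gene and class was read with at least 20 UMIs over both libraries and called past the fold at 1.5-fold after adding 0.5 UMI to each count. Figures were drawn with matplotlib 3.10.9. The interval and fold calculations were tested on simulated data. There was 1 library per condition, so conditions were not tested against each other and p-values are not given. The members, gene lists and gates were chosen with earlier results of these data known. Named by rule were the 10 members, list genes past 1.5-fold in 1 direction in at least 3 classes, and the 3 genes most like each member in Pearson's r of log2(CPM + 10). Genes outside that rule are marked as named after their values were seen. Promoter windows came from RefSeq on GRCm38.p6, and gene positions from GENCODE vM21. Alternatives changed the doublet calls, the gene and mitochondrial limits, the gate, the depth, the scaling, the filter on low counts and the fold.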

Additional observations from a re-analysis of the deposited data

How the results depend on the processing

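Of 618 repeated ratios of single pairs, 533 kept their sign and their side of 1.5-fold and 35 changed sign. Pairs past 1.5-fold fell short of it in 25 repeats, and other pairs passed it in 27. The median log2 ratio of the members kept its sign under all 14 alternatives in *Cldn5*+ (0.21 to 0.65) and *Slc32a1*+ cells (0.08 to 0.65), and changed it under 1 to 5 of the 14 in each other class, most widely in *Kcnj8*+ cells (-0.41 to 0.90). The count of 11 of 47 pairs toward the untreated library came to 7 of 53 with a wider gate that allows some UMIs of other markers, 6 of 31 with cells thinned to 2000 UMIs, 7 of 29 at a minimum of 50 UMIs, 2 of 47 at 2-fold and 13 of 40 at 10% mitochondrial UMIs. The 2 pairs toward the 4OH-tamoxifen library became 4 with a gate of 1 UMI, 4 with a second marker, 5 with the mean over cells, 4 after thinning, 4 at a minimum of 10 UMIs, 1 at 50 UMIs and 0 at 2-fold. Without the small *Kcnj8* and *Slc17a6* gates, an alternative chosen after seeing the data, they were 9 and 1. The cause of these shifts was not tested, except that a stricter filter or fold leaves fewer pairs.

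*Ldha* in *Kcnj8*+ cells reversed to a log2 ratio of -0.077 with the stricter minimum of genes per cell, and *Pdk1* in *Slc32a1*+ neurons to -0.21 with the wider gate. After thinning, the share of cells with *Higd1a* was lower in the untreated library by -3.92 points in *Aqp4*+, -3.08 in *Pdgfra*+, -5.32 in *C1qa*+, -12.6 in *Kcnj8*+ and -1.03 in *Cldn5*+ cells, all 5 higher before. The *Kcnj8* value rests on only 19 untreated and 5 4OH-tamoxifen cells. The counts of the other hypoxia lists, repeated after seeing the data, went from 32 and 27 of 327 pairs (untreated and 4OH-tamoxifen side) to 16 and 14 of 224 at 50 UMIs, 1 and 12 of 327 at 2-fold, 42 and 42 of 369 with a gate of 1 UMI, 44 and 41 of 393 at 10 UMIs and 43 and 28 of 290 with the stricter minimum of genes. The fold of *Vegfa* in *Aqp4*+ cells stayed between 1.38 and 1.79 and that of *Ldha* in *Cldn5*+ cells between 1.63 and 2.07. No paired analysis was possible because each condition has 1 library. Few UMIs limit *Egln3* and *Adm*, and few cells the *Kcnj8* and *Slc17a6* classes.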
